A study of Homo sapiens with 16 samples.

Results

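A group of 40 genes of homologous recombination, the Fanconi anaemia pathway and neighbouring DNA repair was followed in 8505c and CAL62 cells, a pair of human cell lines from anaplastic thyroid carcinoma. The genes were taken by symbol from a gene table of 60715 entries, and all 40 were found in it and passed the filter on low values. 8505c cells carry mutant BRAF and CAL62 cells carry mutant K-RAS, so that in both lines the pathway ending in the kinase ERK is driven by an oncogene. Cells were kept for 24 h in serum-containing medium with DEL-22379 at 1 or 10 µM, U0126 at 10 µM or the vehicle DMSO alone. U0126 inhibits MEK, the kinase that activates ERK. DEL-22379 was described in other cell types as an inhibitor of ERK dimerization. In western blots of the study, short treatment at 10 µM before EGF reduced ERK dimers and ERK phosphorylation in 8505c cells. It did not do so in CAL62 cells. The action on ERK in the cultures sequenced here cannot be read from RNA libraries. The doses are those of the study's methods, since the sample labels give the same figures in mM. A pair of biological replicates was sequenced for each of the 8 combinations of line and treatment, which gave 16 libraries. Since each genotype is represented by 1 line, a difference between BRAF-mutant and RAS-mutant cells cannot be told apart from a difference between these 2 lines.

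Homologous recombination rebuilds a broken chromosome from its sister copy. The MRE11-RAD50-NBN complex senses the end, RBBP8 (CtIP) and EXO1 trim it to a single strand, BRCA1, PALB2 and BRCA2 prepare that strand for exchange, and XRCC2, XRCC3, RAD51C, RAD51D and the RAD54 proteins help it to find and invade the partner. The Fanconi pathway opens crosslinks between DNA strands that stop a replication fork: a core complex with the ligase FANCL and its partner enzyme UBE2T attaches ubiquitin to FANCD2 and FANCI, which then bring in nucleases and the recombination proteins. Both pathways work mainly while DNA is copied and after it, and many of their genes are known to be transcribed together with replication genes in dividing cells, under E2F factors.

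Libraries held 25683055 to 43855907 reads, as recovered from the deposited values. Those values are normalized counts, that is gene counts divided by 1 size factor per library. The lines were told apart by thyroid and epithelial markers. NKX2-1, a thyroid transcription factor, had 0 to 1.1 normalized counts in CAL62 cells and 3765 to 6234 in 8505c cells, and PAX8, another one, had 7285 to 12449 in CAL62 cells and 47.2 to 128.8 in 8505c cells. TSHR, the thyrotropin receptor, was at 0 in all 16 libraries, and other defining genes of thyroid function, TG and SLC5A5, did not exceed 88.8 in any. Of 9 markers of other cell types, the leukocyte genes PTPRC and CD3E did not exceed 11.6. The sum of the 9 was 38539 to 63033 in CAL62 cells with U0126 and 6553 to 14308 with DMSO, nearly all of it from the collagen gene COL1A1, and its part in the results was not tested. COL1A1 was 1 of the 7 that passed the filter and the 1 that was called in CAL62 cells with U0126, where it was higher, while the replicate block also called CDH5 and CD68 lower there. With 10 µM DEL-22379 in CAL62 cells COL1A1 and CDH5 were called lower, CD68 too with the block, and PECAM1 and ACTA2 were called higher. The sum was 2752 to 4578 in CAL62 cells with 10 µM DEL-22379 and 3084 to 4668 over all 8505c libraries. In CAL62 cells the replicates lay apart along the cell cycle genes. The mean log2 level of 24 mitotic (G2/M) genes was 12.42 in DMSO replicate 1 and 11.65 in DMSO replicate 2, and libraries of the same number deviated together, so calls of the 40 genes in a fit that includes the replicate number, called the replicate block, are given with CAL62 results where they differ. Exons of 6 of the 40 genes share bases with another gene on the same strand and those of 20 with a gene on the other strand, among them FANCA with ZNF276, RAD54L with LRRC41, FANCI with POLG, XRCC3 with KLC1 and RAD51D with the readthrough RAD51L3-RFFL. How the counting assigned reads in such exons is not given in the sources used here.

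Promoters, taken as the 250 bases before and 50 bases after a transcription start in RefSeq (GRCh38.p14), were matched for 35 of the 40 genes and searched on both strands for 4 spellings of the E2F motif, TTTCCCGC, TTTGGCGC, TTTCGCGC and TTTGCCGC, where a match on 1 strand may overlap a match on the other. Of the 35 genes 8 had a match, or 22.9%, as against 51.5% of 33 replication genes, 10.5% of 19 G2/M genes and 3.99% of all 27305 genes with a promoter. The 8 were XRCC2, FANCA, FANCC, FANCD2, EXO1, TOPBP1, MSH6 and XRCC6. The cell cycle homology region, searched as TTTGAA or TTCGAA and typical of mitotic genes, was found in 11.4% of the 35 genes, 68.4% of G2/M genes and 19.5% of all genes. CCAAT, the letters that NF-Y binds, was found in 45.7% of the 35 genes and 39.7% of all genes. In CAL62 cells with U0126 the 8 genes with an E2F match had a median log2 fold change of -1.88 and a range of -3.28 to -0.20, and the 27 without had a median of -1.56 and a range of -2.70 to 0.32, so that the groups overlapped over most of their range. The promoters printed here are those of 4 genes with a match that fell steeply in those cells, XRCC2, FANCA, FANCD2 and EXO1 (the first of its 2 listed starts), and of XRCC6, which has a match and was not called. They lie at chr7:152676092-152676391 on the minus strand, chr16:89816598-89816897 on the minus strand, chr3:10026187-10026486 on the plus strand, chr1:241847954-241848253 on the plus strand and chr22:41621045-41621344 on the plus strand. Capitals mark the E2F match, whose first base is at position 22 in XRCC2, -172 in FANCA, -2 in FANCD2, 5 in EXO1 and 43 in XRCC6, counted from 1 at the start of transcription and downward from -1 before it. A match is a description of letters, not of a bound site.
XRCC2: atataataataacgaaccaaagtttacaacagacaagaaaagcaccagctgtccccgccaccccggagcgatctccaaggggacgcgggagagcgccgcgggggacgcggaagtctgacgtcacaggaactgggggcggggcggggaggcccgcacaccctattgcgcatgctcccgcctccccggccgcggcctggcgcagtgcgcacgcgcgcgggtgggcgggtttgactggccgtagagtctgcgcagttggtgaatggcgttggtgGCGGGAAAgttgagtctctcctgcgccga
FANCA: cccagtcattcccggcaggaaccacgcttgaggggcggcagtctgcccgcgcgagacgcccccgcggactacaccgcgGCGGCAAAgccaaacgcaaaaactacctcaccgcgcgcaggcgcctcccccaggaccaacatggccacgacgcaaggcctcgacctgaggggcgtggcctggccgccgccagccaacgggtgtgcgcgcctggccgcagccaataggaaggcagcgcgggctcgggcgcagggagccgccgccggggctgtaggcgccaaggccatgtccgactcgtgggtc
FANCD2: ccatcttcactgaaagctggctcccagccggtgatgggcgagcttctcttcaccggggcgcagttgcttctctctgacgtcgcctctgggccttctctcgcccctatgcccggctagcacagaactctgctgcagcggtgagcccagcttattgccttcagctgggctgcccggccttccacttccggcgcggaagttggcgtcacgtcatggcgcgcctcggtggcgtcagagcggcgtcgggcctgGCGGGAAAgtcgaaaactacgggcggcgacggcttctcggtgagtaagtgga
EXO1: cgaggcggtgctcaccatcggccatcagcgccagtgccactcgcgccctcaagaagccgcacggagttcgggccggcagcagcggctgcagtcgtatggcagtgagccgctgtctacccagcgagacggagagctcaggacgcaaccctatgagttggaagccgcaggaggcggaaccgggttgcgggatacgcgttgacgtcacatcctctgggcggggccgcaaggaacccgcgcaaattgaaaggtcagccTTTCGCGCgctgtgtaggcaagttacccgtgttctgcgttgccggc
XRCC6: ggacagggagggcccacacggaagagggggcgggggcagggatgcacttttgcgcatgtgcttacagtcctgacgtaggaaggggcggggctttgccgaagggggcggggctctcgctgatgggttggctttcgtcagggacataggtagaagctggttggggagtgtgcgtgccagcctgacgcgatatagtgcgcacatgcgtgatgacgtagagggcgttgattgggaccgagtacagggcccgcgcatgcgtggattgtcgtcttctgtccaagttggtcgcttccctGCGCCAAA

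Expression of the 40 genes fell most broadly in CAL62 cells with U0126, where 34 were lower and 1 was higher than with DMSO at an adjusted p under 0.05 in limma. Over all 19127 genes tested, 15.1% were lower and 14.1% higher in that comparison. The median log2 fold change of the 40 genes was -1.30, against 0.05 for all genes. Fewer dividing cells in a culture and less RNA of these genes in each cell cannot be told apart in bulk libraries. With the study's figures of 0.01 for the adjusted p and -1.5 for the log2 fold change as limits, 19 of the 40 genes passed, against 3.06% of all genes. The study set its limit on shrunken fold changes, and those used here were not shrunken. In the same line 22 of the 40 genes fell with 10 µM DEL-22379 and none rose, against 16.8% lower and 17.1% higher of all genes. In 8505c cells 13 fell with U0126, against 5.87% of all genes lower and 6.8% higher, and 5 fell with 10 µM DEL-22379, against 6.57% lower and 7.07% higher. All 5 and all 13 were among those that fell with the same treatment in CAL62 cells. With 34 of the 40 lower with U0126 in CAL62 cells, most of any 13 of them would overlap. The lines also share 1 estimate of spread per gene in the fit, and the overlap over all genes was not counted. The map of fold changes shows these 6 comparisons gene by gene.

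**Figure D1:**
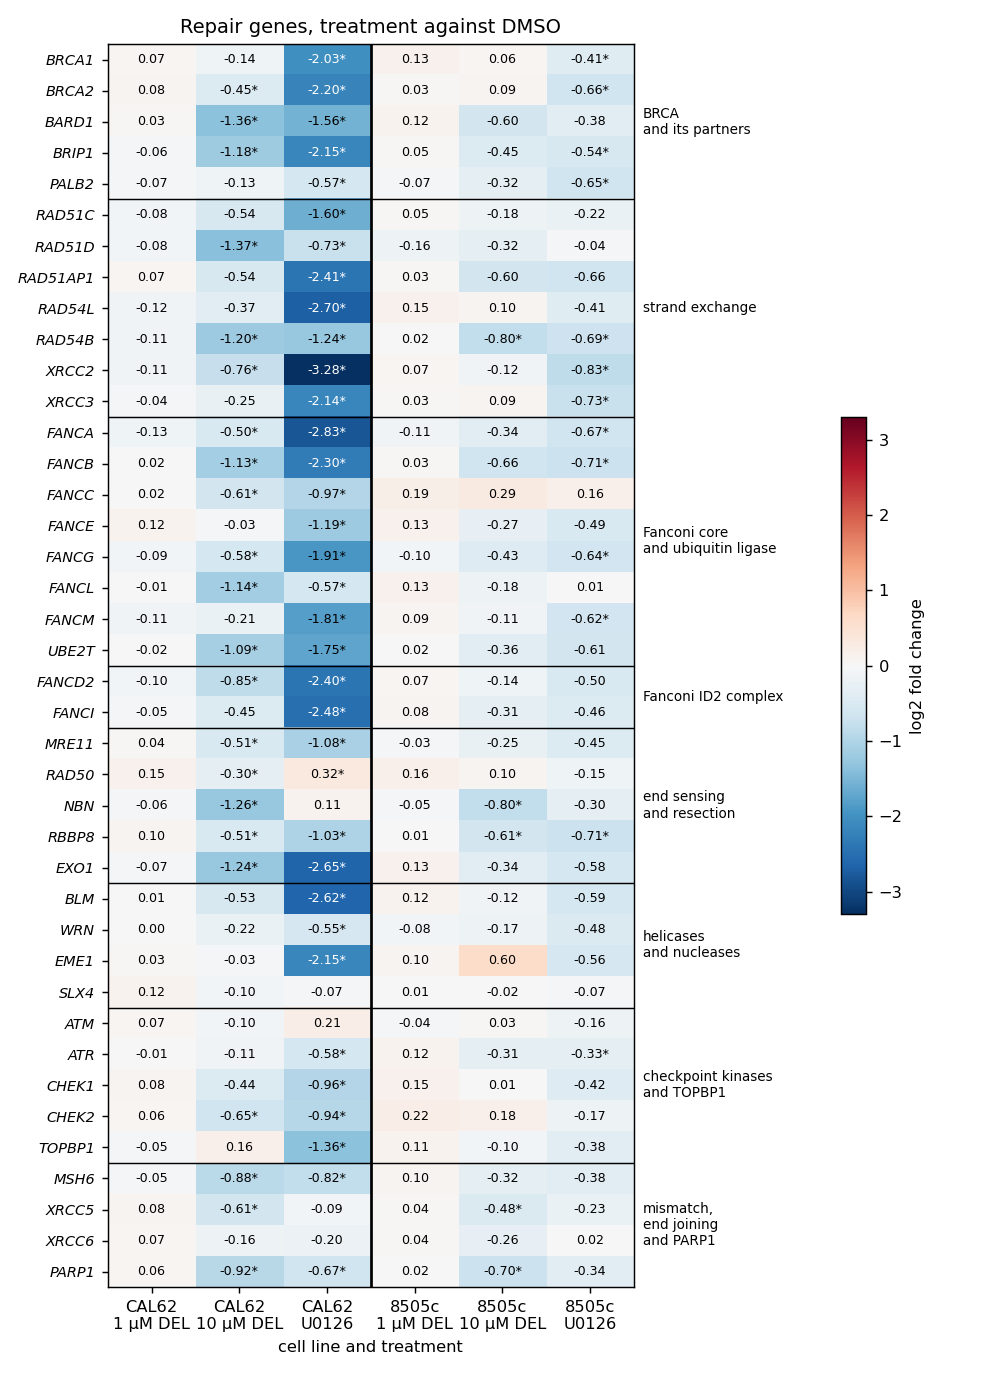
Log2 fold changes of the 40 repair genes (rows, ordered by role) in 6 comparisons of a treatment with DMSO in the same line (columns). Blue is lower and red is higher with the treatment, and an asterisk marks an adjusted p under 0.05 in limma. The column of CAL62 cells with U0126 reaches -3.28 and holds 34 falls, while both columns for 1 µM DEL-22379 stay between -0.16 and 0.22.

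BRCA1 and its partners were reduced in CAL62 cells by U0126 as a group, 5 of 5. BRCA1, the tumour suppressor that directs a break to recombination, had 575 and 656 normalized counts with U0126 and 2683 and 2352 with DMSO, a log2 fold change of -2.03 ± 0.12 (SE) with an adjusted p of 1.21e-06 in limma. BRCA2, a tumour suppressor of the same pathway, had 242 and 262 with U0126 and 1336 and 1012 with DMSO, or -2.20 ± 0.15. BRIP1, a helicase bound to BRCA1, had 265 and 320 with U0126 and 1419 and 1181 with DMSO, or -2.15 ± 0.14. In all 3 genes the U0126 libraries lay far below both DMSO libraries. BARD1, the partner of BRCA1 in its ubiquitin ligase, fell with a log2 fold change of -1.56, but its replicates lay apart, at 373 and 171 with U0126 and 938 and 589.9 with DMSO. PALB2, the bridge between BRCA1 and BRCA2, fell least, at -0.57.

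Among the strand exchange factors 7 of 7 fell in CAL62 cells with U0126. XRCC2, a strand exchange factor on chromosome 7 (152644779 to 152676165, minus strand), had 200.2 and 208 normalized counts with U0126 and 2235 and 1781 with DMSO. Its log2 fold change of -3.28 ± 0.22 had the largest size of the 40, with an adjusted p of 2.05e-06 in limma. RAD54L, a motor protein of strand exchange, had 235 and 211 with U0126 and 1702 and 1229 with DMSO, or -2.70 ± 0.19. RAD51AP1, which stimulates the same step, had a log2 fold change of -2.41, XRCC3 and RAD51C, which form a complex, had -2.14 and -1.60, and RAD54B had -1.24. RAD51D, which works in a complex with XRCC2, was at -0.73 in the same libraries. The steepest and the shallowest fall in this group were thus in XRCC2 and its partner RAD51D.

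The Fanconi genes also fell without exception in CAL62 cells with U0126, 8 of 8 in the core and ligase group and both genes of the complex they act on. FANCA, a core subunit on chromosome 16 (89737549 to 89816657, minus strand), had 622 and 566 normalized counts with U0126 and 4993 and 3584 with DMSO, or -2.83 ± 0.18 with an adjusted p of 1.87e-06 in limma. FANCI had 1478 and 1114 with U0126 and 8271 and 6171 with DMSO, or -2.48 ± 0.17, and its partner FANCD2 had 710.2 and 566 against 3980 and 2833, or -2.40 ± 0.19. Both members of the ubiquitinated pair therefore fell to a similar extent. The other log2 fold changes were -2.30 for FANCB, -1.91 for FANCG, -1.81 for the fork-remodelling helicase FANCM, -1.75 for the ubiquitin-conjugating enzyme UBE2T, -1.19 for FANCE and -0.97 for FANCC. The ligase FANCL fell least of the group, at -0.57, and had 487 and 558 with U0126 and 724 and 829.9 with DMSO.

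Genes of end sensing and resection were split in CAL62 cells with U0126. EXO1, the nuclease of long-range resection on chromosome 1 (241847967 to 241895148, plus strand), had 107 and 208 normalized counts with U0126 and 974 and 917 with DMSO, or -2.65 ± 0.23, and RBBP8 had a log2 fold change of -1.03. Of the MRE11-RAD50-NBN complex, MRE11 fell with -1.08, NBN had 4072 and 3537 with U0126 and 3743 and 3304 with DMSO and was not called, and RAD50 rose. RAD50 had 2443 and 2712 with U0126 and 2102 and 2029 with DMSO, a log2 fold change of 0.32 ± 0.11. The 3 subunits of this complex thus did not move together, although the call for RAD50 was lost when CAL62 was fitted alone, when no filter was applied and when any DMSO or U0126 library of either line, or an 8505c library with 1 µM DEL-22379, was left out. Of the helicases and nucleases, the log2 fold changes were -2.62 for BLM, -2.15 for the junction nuclease subunit EME1 and -0.55 for WRN, while the scaffold SLX4 had 1034 and 1125 with U0126 and 1152 and 1119 with DMSO and was not called.

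Among the checkpoint genes 4 of 5 fell in CAL62 cells with U0126, and 2 of 4 of the mismatch, end joining and PARP1 group. TOPBP1, the activator of ATR, had a log2 fold change of -1.36, CHEK1 -0.96, CHEK2 -0.94 and ATR -0.58, and all 4 were called. ATM, the kinase of double-strand breaks, had 4240 and 4267 normalized counts with U0126 and 3173 and 4277 with DMSO and was not called. XRCC5 and XRCC6, which form the Ku ring of end joining, had log2 fold changes of -0.09 and -0.20 and were not called. The mismatch sensor MSH6 and the strand-break sensor PARP1 fell, at -0.82 and -0.67. The plot of levels shows the contrast between XRCC2, FANCA or BRCA1, where U0126 and DMSO values are far apart, and RAD50 or XRCC5, where they are close.

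**Figure D2:**
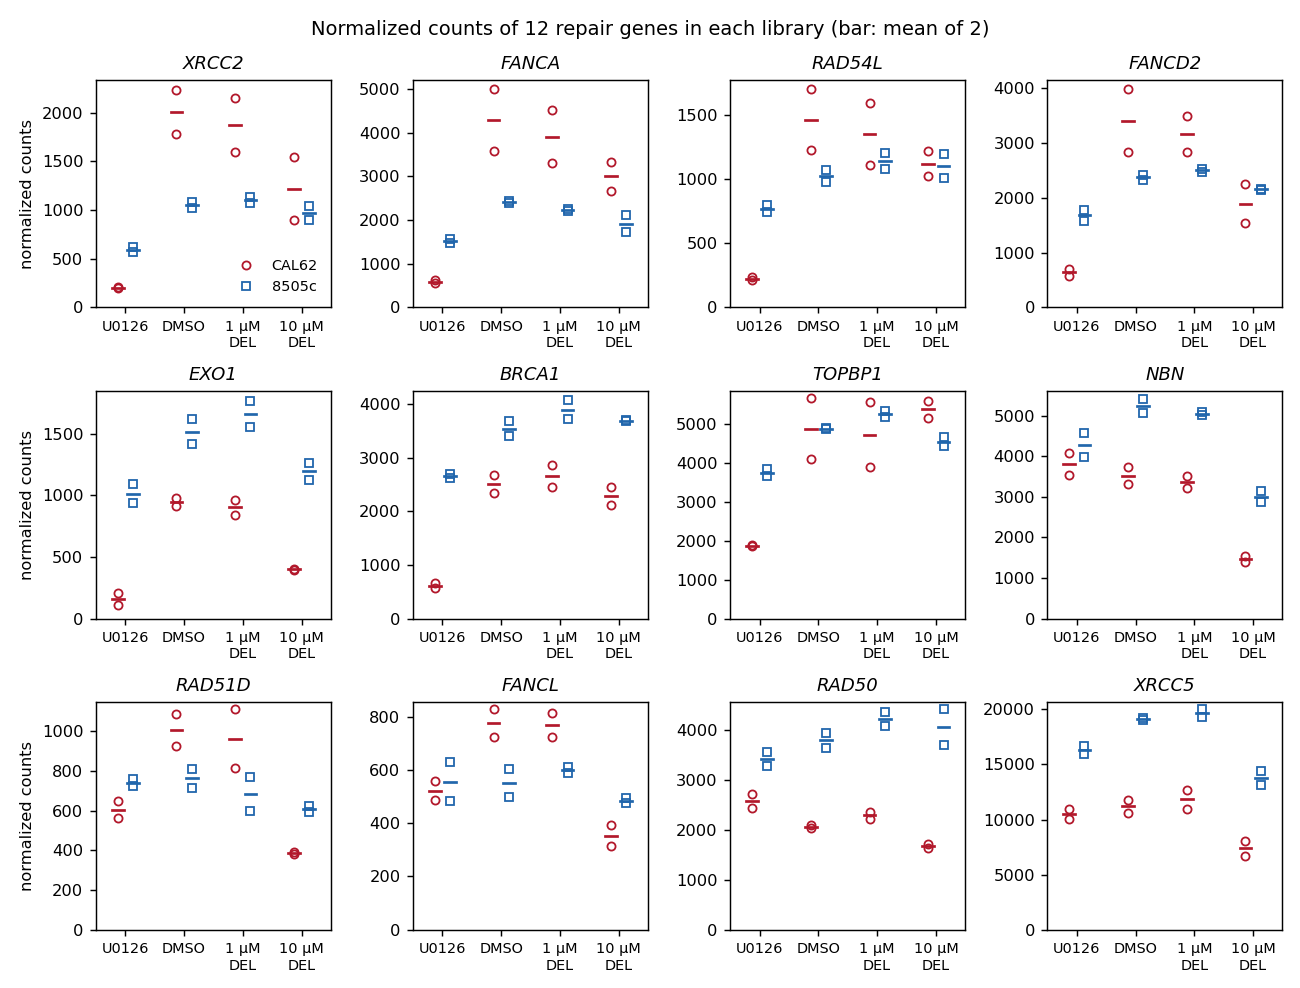
Normalized counts of 12 repair genes in all 16 libraries, with treatments on the x axis and a y axis that starts at 0 in each panel. Red circles are CAL62 libraries, blue squares are 8505c libraries and bars are means of 2 replicates. XRCC2 falls to 200.2 and 208 in CAL62 cells with U0126, against 2235 and 1781 with DMSO, while NBN is lowest with 10 µM DEL-22379 in both lines.

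A different order of genes was seen in CAL62 cells with 10 µM DEL-22379. NBN led by p, with 1538 and 1395 normalized counts with 10 µM DEL-22379 and 3743 and 3304 with DMSO, a log2 fold change of -1.26 ± 0.12 with an adjusted p of 1.74e-05 in limma. RAD51D had 393 and 383 with the inhibitor and 1087 and 923 with DMSO, or -1.37 ± 0.17. RAD54B had 424 and 341 with the inhibitor and 939 and 813 with DMSO, or -1.20 ± 0.13. In these 3 genes both treated libraries lay below both DMSO libraries by more than the replicates differed. BRIP1 fell to 597 and 543, against 1419 and 1181 with DMSO, and FANCL to 392 and 316, against 724 and 829.9. FANCB had 134 and 111 with the inhibitor and 297 and 242 with DMSO, and EXO1 and BARD1 fell with log2 fold changes of -1.24 and -1.36. Several genes with steep falls under U0126 were near their DMSO level with 10 µM DEL-22379. BRCA1 had 2453 and 2127 with the inhibitor and a log2 fold change of -0.14, EME1 -0.03, FANCE -0.03 and TOPBP1 0.16, and none of these was called.

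By role, 10 µM DEL-22379 lowered 5 of 5 resection genes in CAL62 cells, 6 of 8 genes of the Fanconi core and 3 of 5 of BRCA1 and its partners. It also lowered 3 of 7 strand exchange genes, 3 of 4 of the mismatch, end joining and PARP1 group, 1 of 5 checkpoint genes and 0 of 4 helicases and nucleases. Of the pair FANCD2 and FANCI, FANCD2 was called lower. Of all genes 16.8% were lower in this comparison. PARP1 had 4097 and 3051 normalized counts with the inhibitor and 7488 and 6014 with DMSO, or -0.92 ± 0.17. The fit with the replicate block raised the count of falls to 28 of 40, adding RAD51C, RAD51AP1, RAD54L, FANCI, BLM and CHEK1. The count was 12 without DMSO replicate 1, 13 without replicate 2 of the 10 µM group and 13 with CAL62 fitted alone. No gene of the 40 rose in limma, edgeR or DESeq2, and 0 had a positive change at an unadjusted p under 0.05.

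In 8505c cells the falls were shallower. With U0126 the 13 genes that fell had log2 fold changes between -0.83 and -0.33. PALB2 had 597 and 558 normalized counts with U0126 and 936 and 880 with DMSO, or -0.65 ± 0.11 with an adjusted p of 0.00316 in limma. RAD54B had 737 and 763 against 1218 and 1207 with DMSO, and RBBP8 had 1357 and 1329.5 against 2107 and 2284. BRCA2 had 702 and 798 with U0126 and 1145 and 1225 with DMSO, XRCC3 had 1249.7 and 1321 against 2077 and 2180, and XRCC2 had 565 and 622 against 1026 and 1080. These 6 genes had the smallest p in this comparison, so that their U0126 and DMSO libraries lie apart by choice. The other 7 were FANCA, FANCB, FANCG, FANCM, BRIP1, BRCA1 and ATR. The replicate block called more falls in this comparison, as given below with the other alternatives. The count of 13 was 29 when 8505c cells were fitted alone, 7 without the filter on low values, and 3, 2, 2 and 3 without DMSO replicate 1, DMSO replicate 2, U0126 replicate 1 and U0126 replicate 2. No member rose, and 0 had a positive change at an unadjusted p under 0.05 in limma or a call in edgeR or DESeq2.

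The 5 genes that fell in 8505c cells with DEL-22379 at 10 µM were NBN, RAD54B, RBBP8, PARP1 and XRCC5. NBN had 2874 and 3131 normalized counts with the inhibitor and 5408 and 5067 with DMSO, or -0.80 ± 0.12 with an adjusted p of 0.00128 in limma. RAD54B had 650.0 and 746 against 1218 and 1207 with DMSO, and RBBP8 had 1393 and 1491 against 2107 and 2284. PARP1 had 5057 and 6180 against 8919 and 9229.7 with DMSO, and XRCC5 had 13118 and 14363 against 19257 and 19035. NBN and XRCC5 fell with 10 µM DEL-22379 in both lines and were called with U0126 in neither. FANCB, the sixth by p, had 281 and 372 with the inhibitor and 482 and 542 with DMSO and was not called. EME1 lay the other way, with 1356 and 1225 against 863 and 839.9 with DMSO, or 0.60 ± 0.20 with an adjusted p of 0.0664 in limma. It was the 1 member with a positive change at an unadjusted p under 0.05, and it was called by DESeq2 and not by edgeR. With the replicate block 13 repair genes were called lower and 1 higher. The count of 5 was 13 with 8505c cells fitted alone, 2 without DMSO replicate 1, DMSO replicate 2 or replicate 1 of the 10 µM group, and 8 without either CAL62 DMSO library.

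At 1 µM DEL-22379 no gene of the 40 was called in either line, and 0 reached an unadjusted p under 0.05 in limma, with 0 calls in edgeR and DESeq2. Log2 fold changes ranged from -0.16 to 0.22 in 8505c cells and from -0.13 to 0.15 in CAL62 cells. Of all genes, 0.0157% were called in 8505c cells and 0% in CAL62 cells.

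The inhibitors were compared directly at 10 µM of each. In CAL62 cells 25 genes were lower and 5 were higher with U0126 than with 10 µM DEL-22379, against 22.1% and 21% of all genes. NBN had 4072 and 3537 normalized counts with U0126 and 1538 and 1395 with DEL-22379, a log2 fold change of 1.37 ± 0.12 with an adjusted p of 2.96e-06 in limma. BRCA1 had 575 and 656 with U0126 and 2453 and 2127 with DEL-22379, or -1.89 ± 0.12. FANCA differed by -2.33 ± 0.18, RAD54L by -2.32 ± 0.19 and XRCC2 by -2.52 ± 0.22. NBN and BRCA1 thus stood on opposite sides of this comparison. The fit with the replicate block called 27 lower and 7 higher, adding FANCC and WRN below and ATM and PARP1 above. In 8505c cells 4 genes were lower with U0126 than with 10 µM DEL-22379 and 1 was higher, against 4.55% and 5.39% of all genes. The 4 were EME1 at -1.16 ± 0.20, XRCC3 at -0.82 ± 0.16, BRCA2 at -0.76 ± 0.15 and BRCA1 at -0.47 ± 0.12, and NBN was higher at 0.51 ± 0.12. The count of 4 was 12 with 8505c cells fitted alone, 0 without replicate 1 of either inhibitor in 8505c cells and 2 without U0126 replicate 2. The responses to the inhibitors share their DMSO libraries, so no correlation between them was computed.

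Whether the lines responded differently was tested as an interaction. With U0126, 20 of the 40 genes had a lower log2 fold change in CAL62 than in 8505c cells and none a higher one, against 3.85% and 1.84% of all genes. XRCC2 changed by -3.28 in CAL62 cells and -0.83 in 8505c cells, a difference of -2.46 ± 0.31 with an adjusted p of 0.00115 in limma. RAD54L changed by -2.70 in CAL62 and -0.41 in 8505c cells, FANCA by -2.83 in CAL62 and -0.67 in 8505c cells, and FANCI by -2.48 in CAL62 and -0.46 in 8505c cells. BRCA1 changed by -2.03 in CAL62 and -0.41 in 8505c cells, and BRIP1 by -2.15 in CAL62 and -0.54 in 8505c cells. The differences of these 5 ranged from -2.28 to -1.61. In limma 2 genes had a positive difference at an unadjusted p under 0.05, with 0 calls in edgeR and DESeq2 and 1 call, NBN at 0.41, in the fit with the replicate block, which called 25 genes lower and added BARD1, RAD51D, RAD54B, MRE11 and CHEK2. None of the 4 genes of the mismatch, end joining and PARP1 group differed by the test, with differences from -0.44 to 0.14.

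With 10 µM DEL-22379, 5 of the 40 genes had a lower log2 fold change in CAL62 than in 8505c cells and none a higher one, against 7.17% and 7.21% of all genes. RAD51D changed by -1.37 in CAL62 cells and -0.32 in 8505c cells, a difference of -1.04 ± 0.24 with an adjusted p of 0.0141 in limma. FANCL changed by -1.14 in CAL62 and -0.18 in 8505c cells, CHEK2 by -0.65 in CAL62 and 0.18 in 8505c cells, BRIP1 by -1.18 in CAL62 and -0.45 in 8505c cells, and FANCC by -0.61 in CAL62 and 0.29 in 8505c cells. CHEK2 had 285 and 249.7 normalized counts in CAL62 cells with the inhibitor and 426 and 409.9 with DMSO, while in 8505c cells it had 510.1 and 506 with the inhibitor and 439 and 458 with DMSO. FANCC had 662 and 499 in CAL62 cells with the inhibitor and 933 and 833 with DMSO, and 735 and 722 in 8505c cells with the inhibitor and 509 and 699 with DMSO. This count was among the least stable: it was 13 with the replicate block (adding BRCA2, BARD1, UBE2T, FANCD2, NBN, EXO1, EME1 and MSH6), 12 with equal library totals, 2 without the filter, and between 0 and 3 without any 1 of the 8505c libraries with DMSO or DEL-22379, without CAL62 DMSO replicate 1 (2 genes) or without replicate 2 of the CAL62 10 µM group (1 gene). It was 8 without CAL62 DMSO replicate 2 or replicate 1 of the CAL62 10 µM group. No gene had a positive difference at an unadjusted p under 0.05, and edgeR and DESeq2 called 0.

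In DMSO, without an inhibitor, 13 of the 40 genes were lower and 8 higher in CAL62 than in 8505c cells, against 27.4% and 25.6% of all genes. FANCM had 292 and 281 normalized counts in CAL62 cells and 941 and 999 in 8505c cells, or -1.76 ± 0.17 with an adjusted p of 3.16e-06 in limma. RAD50 was at 2102 and 2029 in CAL62 cells and 3942 and 3633 in 8505c cells, and XRCC5 at 11812 and 10568 against 19257 and 19035. FANCA went the other way, with 4993 and 3584 in CAL62 cells and 2432 and 2402 in 8505c cells, or 0.81 ± 0.18, as did XRCC2 with 2235 and 1781 against 1026 and 1080, or 0.92 ± 0.22. With DMSO XRCC2 and FANCA were thus higher in CAL62 than in 8505c cells. In the separate cultures with U0126 they were lower in CAL62 cells, 200.2 and 208 against 565 and 622 for XRCC2. The fit with the replicate block called 16 lower and 10 higher, adding RAD51C, MRE11 and XRCC6 below and RAD51D and FANCI above. Without CAL62 DMSO replicate 2 the count of lower genes was 7. The count of higher genes was 3 without CAL62 DMSO replicate 1 or 8505c DMSO replicate 1, 4 without 8505c DMSO replicate 2 and 5 without any of the treated 8505c libraries.

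The falls of the repair genes were then set against those of 40 replication genes, the origin licensing, helicase and polymerase genes that are used when cells copy DNA. In CAL62 cells with U0126 all 40 replication genes fell, with a median log2 fold change of -2.10, against -1.30 for the repair genes, and 24 of 24 G2/M genes fell with a median of -2.05. MCM4, a subunit of the replicative helicase, was at -2.27 and ORC1, an origin recognition subunit, at -2.32. The replication median was below that of the repair genes by 0.80, and 13 of the 40 repair genes lay below it. In CAL62 cells with 10 µM DEL-22379 the medians were -0.52 for the repair genes and -0.82 for the replication genes, and 12 repair genes lay below the replication median. In 8505c cells the medians were -0.45 for both lists with U0126, with 20 repair genes below the replication median, and -0.26 and -0.28 with 10 µM DEL-22379, with 18 below. The median of the repair genes minus that of the replication genes was thus 0.80, 0.29, -0.01 and 0.03 in these 4 comparisons. Without the mismatch, end joining and PARP1 genes it was 0.52 in CAL62 cells with U0126 and 0.11 in 8505c cells with 10 µM DEL-22379. Against the G2/M median in place of the replication median it was 0.19 in CAL62 cells with 10 µM DEL-22379, -0.22 in 8505c cells with U0126 and -0.14 with DEL-22379 at 10 µM, and against helicase genes it was 0.45 in CAL62 cells with 10 µM DEL-22379. The strip plot shows the overlap of the lists.

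**Figure D3:**
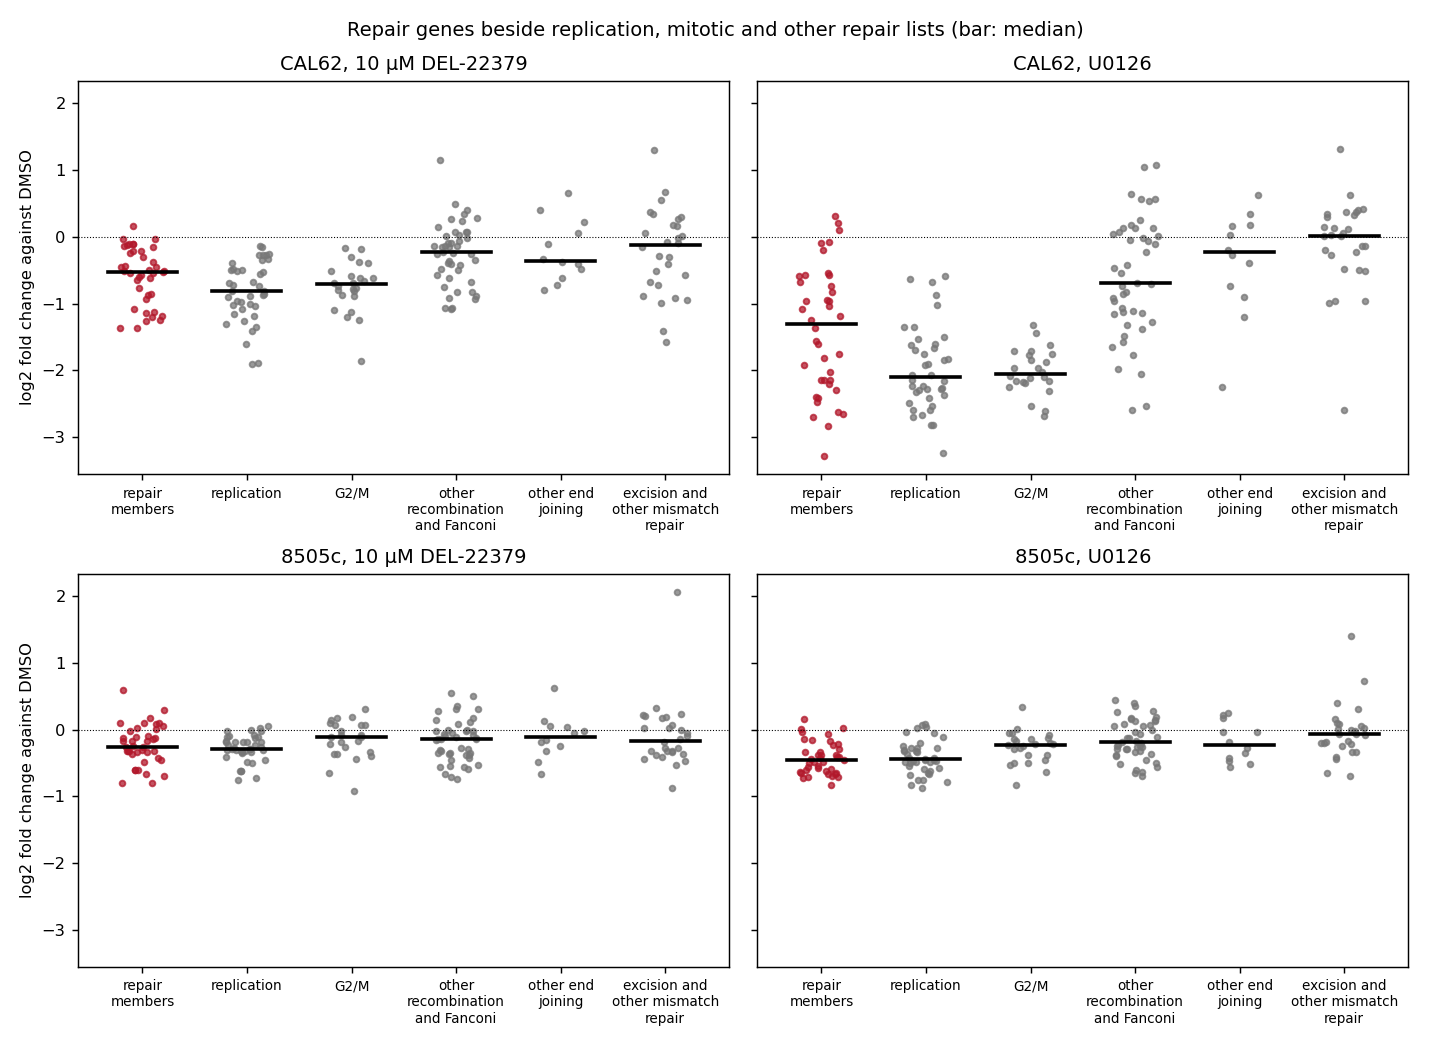
Log2 fold changes against DMSO (y axis) of the 40 repair genes (red) and of 5 other lists (grey), 1 point per gene, with black bars at the medians, in 4 comparisons. In CAL62 cells with U0126 the repair genes spread from -3.28 to 0.32 around a median of -1.30, while replication and G2/M genes centre at -2.10 and -2.05.

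The same was seen library by library. The mean log2 level of the repair genes minus that of the replication genes was -0.09 ± 0.06 in CAL62 cells with U0126, -0.43 ± 0.02 with 10 µM DEL-22379 and -0.66 ± 0.10 with DMSO (SD, n = 2 each). The gap was therefore smaller with U0126 and with 10 µM DEL-22379 in this line, since replication genes fell further. In 8505c cells it was -0.80 ± 0.01 with U0126, -0.73 ± 0.02 with 10 µM DEL-22379 and -0.79 ± 0.05 with DMSO (SD, n = 2 each), or within 0.06 of the DMSO mean. The gap also differed between replicates in CAL62 cells where none of the 40 genes was called, at -0.73 in replicate 1 and -0.56 in replicate 2 with 1 µM DEL-22379, and at -0.73 in replicate 1 and -0.59 in replicate 2 with DMSO. In these libraries too the replication genes lay further from the DMSO mean than the repair genes, as the plot of mean levels shows.

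**Figure D4:**
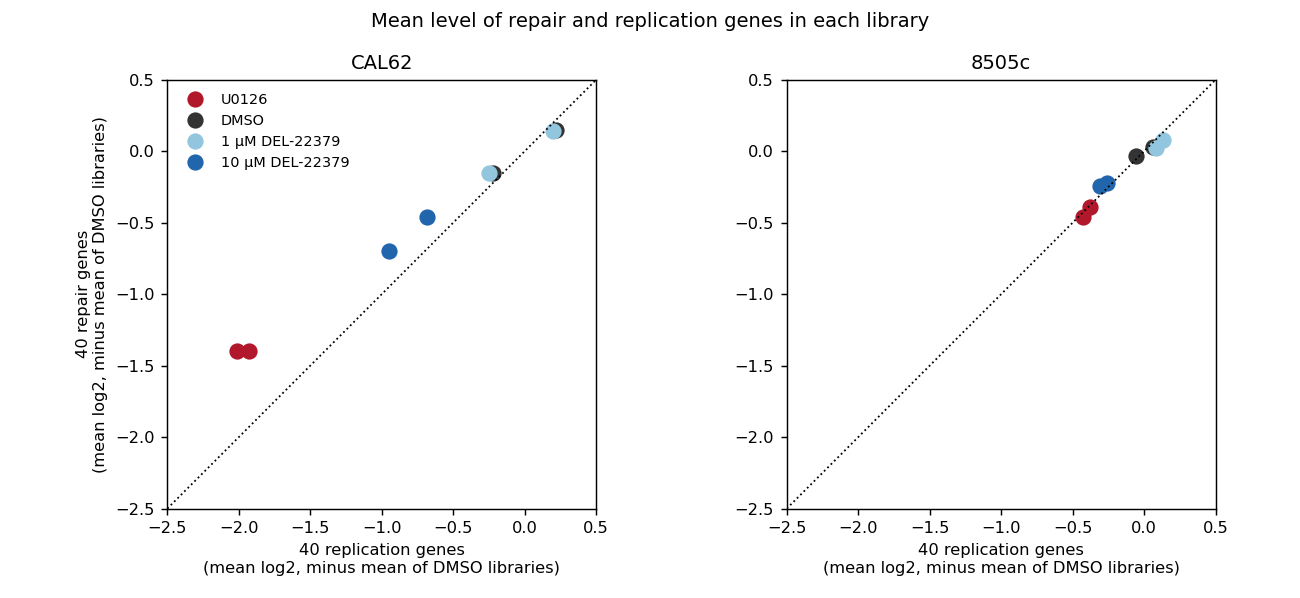
Mean log2 level of the 40 repair genes (y axis) against that of the 40 replication genes (x axis) in each library, both minus the mean of the DMSO libraries of that line, for CAL62 (left) and 8505c (right). The dotted line marks equal change. CAL62 libraries with U0126 lie above it, at -1.40 for repair and -1.93 and -2.01 for replication genes, and 8505c libraries lie close to it.

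Each gene was also tested after the mean log2 level of the replication genes had been subtracted in every library. In CAL62 cells with U0126, 8 repair genes fell further than the mean of the replication genes. Another 22 fell less or did not fall, against 0.633% of all genes called lower and 88.1% called higher. Single replication genes spread widely: the 16 with a promoter but no E2F match had log2 fold changes from -3.24 to -0.58. A gene called lower than the mean can thus lie within the range of single replication genes. Since most genes were called in this test, its adjusted p was close to the unadjusted p. The 8 were XRCC2 at -1.31 ± 0.18 relative to replication (adjusted p of 1.21e-05 in limma), FANCA at -0.86 ± 0.14, RAD54L at -0.72 ± 0.14, EXO1 at -0.68 ± 0.27, BLM at -0.64 ± 0.16, FANCI at -0.50 ± 0.14, RAD51AP1 at -0.44 ± 0.15 and FANCD2 at -0.43 ± 0.15. Genes of the same roles, among them RAD51C, RAD54B, FANCE and MRE11, were called the other way. BRCA1, BRCA2, BRIP1, XRCC3, EME1, FANCB, FANCG, FANCM, UBE2T and BARD1 had relative changes between -0.33 and 0.42 and were not called. At the other end were RAD50 at 2.29 ± 0.20, NBN at 2.08 ± 0.16, XRCC5 at 1.88 ± 0.14 and XRCC6 at 1.77 ± 0.14. All 5 checkpoint genes and all 4 of the mismatch, end joining and PARP1 group were in the set of 22. With helicase genes alone or with G2/M genes in place of the 40 replication genes, 4 genes and not 8 fell further, and 5 did without CAL62 U0126 replicate 2.

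**Figure D5:**
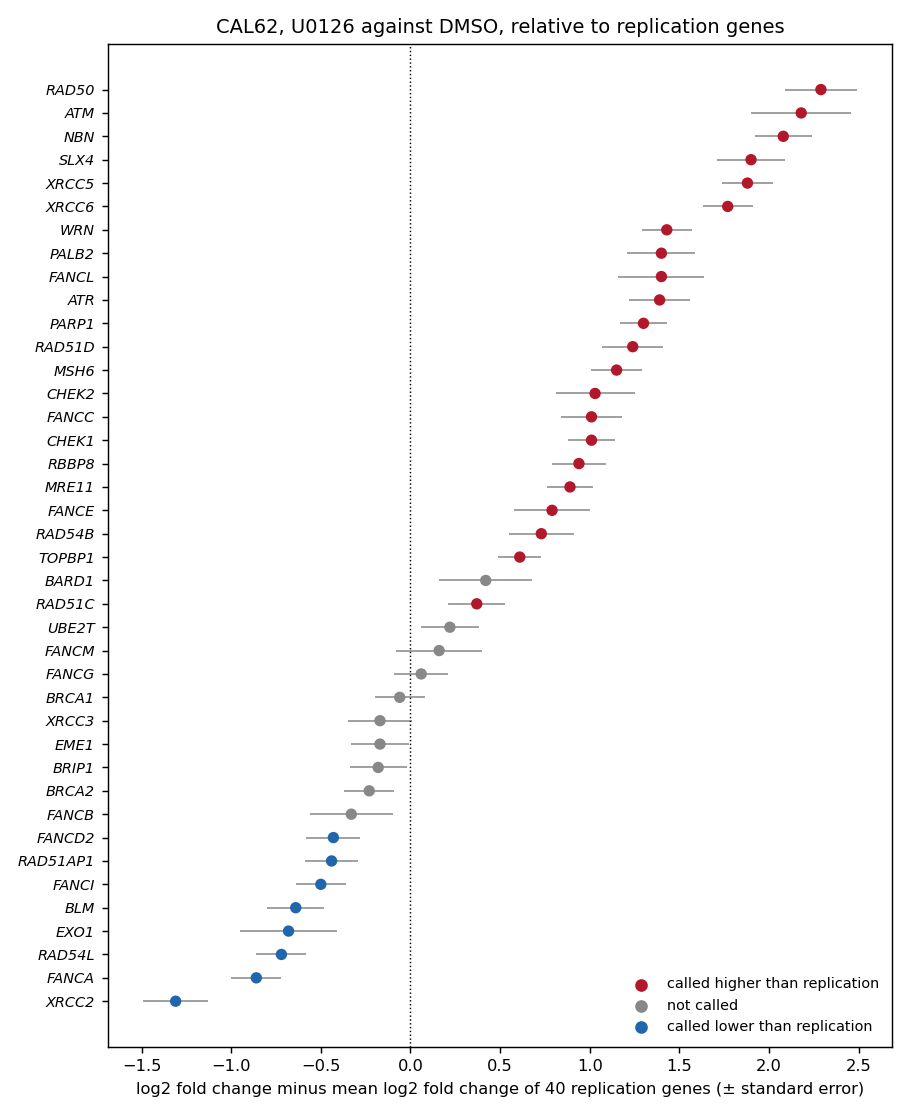
Log2 fold change of each repair gene in CAL62 cells with U0126 against DMSO, minus the mean change of the 40 replication genes (x axis), with standard errors from limma. Blue points (8 genes) were called lower and red points (22 genes) higher than the mean of the replication genes at an adjusted p under 0.05. Grey points were not called. XRCC2 is at -1.31 and RAD50 at 2.29.

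Relative to replication in CAL62 cells with 10 µM DEL-22379, 2 repair genes fell further and 17 fell less or did not fall, against 2.62% and 49.7% of all genes. The 2 were RAD51D at -0.55 ± 0.17 and NBN at -0.45 ± 0.16, and the block raised their number to 6 with EXO1, RAD54B, BARD1 and BRIP1, and the number of those that fell less or did not fall to 21 with FANCA, MRE11, RBBP8 and BLM. TOPBP1 was highest relative to replication at 0.97 ± 0.12, followed by EME1 and FANCE at 0.78 each. TOPBP1 had 5609 and 5174 normalized counts with the inhibitor and 5672 and 4111 with DMSO. The count of 17 was 6 without CAL62 DMSO replicate 1, 8 without replicate 2 of the 10 µM group and 1 with G2/M genes as the base, and the count of 2 was 0 with helicase or G2/M genes, 0 without DMSO replicate 2 or replicate 1 of the 10 µM group and 1 without its replicate 2. In 8505c cells no gene was called lower than the mean of the replication genes with either inhibitor in limma. The share of all genes called lower at an adjusted p under 0.05 was 1.19% with 10 µM DEL-22379 and 1.32% with U0126. At an unadjusted p under 0.05, a looser limit, 3 repair genes were lower with 10 µM DEL-22379 and 1 with U0126. The share of all genes at that looser limit is not given here. This relative test was not run in edgeR or DESeq2. EME1 was higher relative to replication with 10 µM DEL-22379, at 0.88 ± 0.16, and FANCC with U0126, at 0.57 ± 0.17, against 6.8% and 12.8% of all genes. The call for EME1 was lost without 8505c DMSO replicate 2 or replicate 1 of the 10 µM group, and the call for FANCC without any 1 of the 8505c libraries or of the CAL62 libraries with U0126. FANCC had 654 and 682 with U0126 and 509 and 699 with DMSO, so that the groups overlapped.

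Other genes of these and neighbouring repair pathways had medians nearer to 0 in CAL62 cells with U0126. Of 45 further recombination and Fanconi genes, 24 fell and 3 rose in CAL62 cells with U0126, with a median log2 fold change of -0.69. MCM8, a helicase of recombination, fell with -2.05 and the resection nuclease DNA2 with -1.98. Of 12 further end joining genes 4 fell and 1 rose with a median of -0.23, and POLQ, the polymerase of the microhomology route, was at -2.25, PAXX at -1.20 and RIF1 at -0.89, all called lower. Of 28 excision and other mismatch repair genes 7 fell and 5 rose with a median of 0.02, with the glycosylase NEIL3 at -2.59. With 10 µM DEL-22379 in CAL62 cells the 45, 12 and 28 genes had 13, 4 and 12 falls and 3, 1 and 3 rises. The share of all genes called lower and higher in CAL62 cells was 15.1% and 14.1% with U0126 and 16.8% and 17.1% with 10 µM DEL-22379. In 8505c cells 3 of the 45 fell and 1 rose with U0126, against 5.87% lower and 6.8% higher of all genes, and 6 fell and 0 rose with 10 µM DEL-22379, against 6.57% lower and 7.07% higher of all genes.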

How the data were processed

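RNA of 8505c and CAL62 cells was sequenced from poly(A)-selected, stranded libraries. The signal values were deposited by the authors as normalized counts, that is, whole counts scaled by a size factor of each library and rounded, on the genome build GRCh38 per the labels. Aligner, counter and annotation were not given in the sources used here. Low values of a library were whole multiples of 1 step of 0.780 to 1.34 normalized counts, and division by it gave whole reads to within 0.02 for 100% of the values checked, those under 200.

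The fit took 19127 of 60715 genes, those with 10 or more normalized counts in 2 or more libraries, on log2(value + 1) in limma 3.58.1 (R 4.3.3) with 1 mean for each of the 8 groups and trended, robust moderation (8 residual degrees of freedom). Fold changes are on that scale, and p-values were adjusted by Benjamini-Hochberg over all genes. With 2 replicates per group this spread, not depth, sets the precision. For the test against replication, the mean log2 level of 40 replication genes was subtracted from every gene in each library before the same fit. Because the replication genes are themselves measured with error, this mean adds a shared error to all relative values. Alternatives covered the pseudocount, filter, scaling, lines fitted alone, a replicate block, edgeR 4.0.16 and DESeq2 1.42.0 on recovered reads, other reference lists and leaving out each library, where a lone library was assumed to vary like the rest.

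Libraries that carry the same replicate number deviated from their group means together in CAL62 cells, with correlations across genes of 0.22 to 0.504 in 6 pairs of groups. Over all genes they did so less in 8505c cells, with 0.088 to 0.122. Over genes with a mean above 100 the ranges overlapped, at 0.275 to 0.815 in CAL62 and 0.209 to 0.356 in 8505c cells. A pairing in 8505c cells is thus not excluded. The main counts come from the fit without replicate numbers. Calls of the replicate block, an alternative fit that uses the numbers, are therefore given beside CAL62 results. The labels do not state any pairing. The repair genes and all lists were chosen with earlier results of these data known, so the choice is not independent of them. By rule, values per library were given for the 6 members with the smallest p in each comparison of U0126 or 10 µM DEL-22379 with DMSO, for up to 6 with a called line difference, for up to 4 relative to replication, and for the 3 smallest p in CAL62 cells with U0126 in each other list. Values of other members were given where they complete a complex or show a contrast, and were chosen after their values were seen. Gene positions and overlaps come from GENCODE 29 and promoters from RefSeq. Single values of some genes in the other lists are not reported here.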

Additional observations from a re-analysis of the deposited data

Results flagged for a closer look

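The effect of an inhibitor differed between the lines, by the interaction in limma at an adjusted p under 0.05, for the following repair genes. Each value is the log2 fold change in CAL62 minus that in 8505c cells, so a negative value is a lower fold change in CAL62 cells. With 10 µM DEL-22379 the differences were -1.04 for RAD51D, -0.96 for FANCL, -0.90 for FANCC, -0.83 for CHEK2 and -0.73 for BRIP1. With U0126 the strand exchange genes differed by -2.46 for XRCC2, -2.28 for RAD54L, -1.75 for RAD51AP1, -1.41 for XRCC3 and -1.38 for RAD51C. BRCA1 differed by -1.62, BRIP1 by -1.61 and BRCA2 by -1.54. Of the Fanconi genes, FANCA differed by -2.16, FANCI by -2.02, FANCD2 by -1.90, FANCB by -1.59, FANCG by -1.27, FANCM by -1.20, UBE2T by -1.14 and FANCC by -1.13. The nuclease genes EXO1 and EME1 differed by -2.07 and -1.59, the helicase gene BLM by -2.03 and TOPBP1 by -0.98. FANCC is the gene of these 2 sets whose fold changes had opposite signs in the lines with both inhibitors, at -0.97 in CAL62 and 0.16 in 8505c cells with U0126, and -0.61 in CAL62 and 0.29 in 8505c cells with DEL-22379 at 10 µM. In 8505c DMSO its replicates had 509 and 699 normalized counts, and both of its interactions use that pair.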

How the results depend on the processing

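No repair gene reversed a called direction under any alternative tried. Of 4010 alternatives for single called genes, 3679 kept the call and 331 lost it. Calls held under all alternatives for 28 of 35 genes in CAL62 cells with U0126, 12 of 22 with 10 µM DEL-22379, 1 of 13 in 8505c cells with U0126 and 2 of 5 with 10 µM DEL-22379, for 14 of 20 line differences with U0126 and 0 of 5 with 10 µM DEL-22379, for 25 of 30 genes between the inhibitors in CAL62 cells and 0 of 5 in 8505c cells, and for 9 of 21 between the lines in DMSO. The causes of the changes below were not tested.

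Counts of genes lower than DMSO in 8505c cells with 10 µM DEL-22379 (5) were 8 with a mean of at least 50, 13 with each line alone, 13 with the replicate block, 9 in DESeq2 and 2 to 8 without 1 library. The count higher (0) was 1 with equal totals, quantile normalization, each line alone, the block or DESeq2 and 0 to 1 without 1 library. With U0126 in 8505c cells the 13 falls were 7 without the filter, 29 with each line alone, 27 with the block and 2 to 17 without 1 library. In CAL62 cells the 22 falls with 10 µM DEL-22379 were 13 with each line alone and 12 to 27 without 1 library, the 34 falls with U0126 were 28 to 34, and the 1 rise was 0 without the filter or with each line alone and 0 to 1 without 1 library.

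For U0126 against 10 µM DEL-22379 in 8505c cells, the 4 lower genes were 12 with each line alone, 11 with the block, 7 in DESeq2 and 0 to 5 without 1 library, and the 1 higher gene was 2 with each line alone or the block and 0 to 1. In CAL62 cells these counts were 23 to 25 and 4 to 5. The 5 line differences with 10 µM DEL-22379 were 2 without the filter, 12 with equal totals, 9 with quantile normalization, 13 with the block and 0 to 8 without 1 library. With U0126 the 20 lower were 14 to 21, and the 0 higher were 1 with quantile normalization or the block and 0 without 1 library. In DMSO the 13 genes lower in CAL62 were 7 to 14, and the 8 higher were 5 without the filter and 3 to 9 without 1 library.

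Relative to replication in 8505c cells, the 0 lower genes with 10 µM DEL-22379 were 1 with the median of the replication genes, 3 with the block and 0 to 2 without 1 library, and the 1 higher gene was 0 with G2/M genes as the base, 6 with the median, 7 with the block and 0 to 2. With U0126 the 1 higher gene was 0 with helicase or G2/M genes, 2 with the median or the block and 0 to 2. In CAL62 cells with 10 µM DEL-22379 the 2 lower were 0 with helicase or G2/M genes, 4 with the median, 6 with the block and 0 to 3, and the 17 higher were 1 with G2/M genes, 11 with the median and 6 to 17. With U0126 the 8 lower were 4 with helicase or G2/M genes and 5 to 8, and the 22 higher were 21 to 22. The difference of medians (0.03, -0.01, 0.29 and 0.80, in the order 8505c with 10 µM DEL-22379 and U0126, then CAL62 likewise) was -0.14, -0.22, 0.19 and within its spread against G2/M genes. It was 0.45 against helicase genes for CAL62 with 10 µM DEL-22379. Without the mismatch, end joining and PARP1 genes it was 0.11 for 8505c with 10 µM DEL-22379 and 0.52 for CAL62 with U0126. Without 1 library it was -0.01 to 0.07, -0.03 to 0.0, 0.28 to 0.37 and 0.65 to 0.87. The block changed no call in CAL62 cells with U0126, relative to replication or not. Same-numbered 8505c libraries were taken to share only a number.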

Other observations

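The regulators of the replication and repair programme were mostly lower in CAL62 cells with U0126. Of 17 E2F factors and related regulators, 13 fell and 1 rose, with a median log2 fold change of -1.39. Of all genes 15.1% were lower and 14.1% higher. E2F1, an activating E2F factor, had 509 and 563 normalized counts with U0126 and 5215 and 3445 with DMSO, or -2.98 ± 0.24 with an adjusted p of 5.94e-06 in limma. MYBL2, which acts on late cell cycle genes, had 582 and 841 with U0126 and 4898 and 4087 with DMSO, or -2.67 ± 0.18, and E2F7, a repressing E2F factor, fell by 2.34. With 10 µM DEL-22379 in CAL62 cells 3 of the 17 fell and none rose, against 16.8% lower and 17.1% higher of all genes. The share of falls was thus close to that of all genes. E2F1, MYBL2 and E2F7 had log2 fold changes of -0.04, -0.46 and -0.16 there and were not called. In 8505c cells E2F7 fell with both inhibitors, by 1.08 with 10 µM DEL-22379 and by 0.82 with U0126, while E2F1 was not called with either. The link of these levels to those of the repair genes was not tested.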
